A study of Mus musculus with 11 samples.

Results

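The Kruppel-like factors described here are 10 genes, Klf5, Klf4, Klf10, Klf3, Klf9, Klf12, Klf6, Klf13, Klf15 and Klf7, chosen by name from the 53453 gene rows of a transcript table. All 10 were among the 13549 genes that reached at least 1 TPM in at least 5 libraries and were tested. TPM, the unit of the table, is a level per transcript length, expressed as a share of a library's transcripts. Klf5 passed this limit only through the libraries in which it was overexpressed, so it had to differ. RNA sequencing was done on primary neurospheres, free-floating spheres of cultured neural stem cells and progenitors, grown from embryonic mouse brain at E15.5, that is, embryonic day 15.5. The groups were 5 libraries with Klf5 overexpression and 6 control libraries labelled as untreated; the labels count 1 embryo for each. The vector or allele, the promoter, the cells that carried it, the mouse strain and any agent given to the controls were not given in the sources used. The title of the study sets Klf5 against Klf4 in the fate of neural precursors, and the comparison asks how the family stands when Klf5 is high.

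Kruppel-like factors are transcription factors that bind CACCC boxes and related GC-rich sites through zinc fingers near their C-terminus. Because the fingers are alike, several members can bind the same sites, and members are known to regulate each other's genes, the best known case being Klf1 and Klf3 in red blood cells. The remainder of the protein decides the outcome. Klf4, Klf5, Klf6 and Klf7 recruit mainly activators, Klf3 and Klf12 recruit the CtBP corepressors, and Klf9, Klf10 and Klf13 recruit the Sin3A corepressor. In the nervous system Klf4 and Klf9 are known to restrain axon growth, Klf6 and Klf7 to promote it, and Klf4 is one of the factors used to reprogram cells to pluripotency.

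Per library the listed values added up to 730832 to 821967 TPM with Klf5 overexpression and to 814208 to 846780 TPM in controls, so between 15.3 and 26.9% of a library, if scaled to the usual total, lay outside the rows used here. Overexpression replicate 5 had the lowest sum, and it was the lowest overexpression library for 8 of the 10 members, against 47.5% of all tested genes. After every library was rescaled to a common sum it was lowest for 7 members, against 37.2% of tested genes. Control replicate 1 was the lowest or the highest control for 5 of the 10 members, against 40.9% of tested genes. Sequencing depth is unknown, since TPM keeps no depth. The neural progenitor markers were present, with summed levels of 3531 to 5514 TPM in overexpression libraries and 4502 to 7606 TPM in controls. The 7 endothelial, 6 erythroid and 8 epithelial markers were all under 1 TPM in every library, and so were 5 of 6 microglial markers, whose 6 levels summed to at most 1.99 TPM in overexpression libraries and 0.855 TPM in controls. Klf5 is best known from epithelia, and 3 of the 8 epithelial markers were at 0 in all 11 libraries. In such bulk samples fewer cells of a type and less RNA per cell cannot be told apart.

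Klf5, a factor of proliferating epithelial and smooth muscle cells, and Klf10 and Klf3 were higher with Klf5 overexpression, and no member was lower by the test. The test was limma on log2(TPM + 1), with p-values adjusted over all 13549 tested genes at 0.05, and log2 fold changes are on that scale, which understates the change of low genes. Apart from Klf5, which had to differ, 2 of 9 members were called, beside 3.72% of tested genes called in either direction, 2.29% higher and 1.43% lower. In TPM before any rescaling, the overexpression libraries lay wholly above the control range in Klf5 and in 1 of the 9 others, Klf10. They lay wholly outside it in 3.29% of tested genes, 1.99% above and 1.31% below. With Klf4 and Klf9, 4 of the 9 had an unadjusted p under 0.05, against 12.6% of tested genes. The median log2 fold change was 0.33 over the 10 members and 0.17 over the 9 without Klf5, beside −0.04 over all tested genes. In all, 6 of 10 members and 42.4% of tested genes had a log2 fold change above 0.

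**Figure D1:**
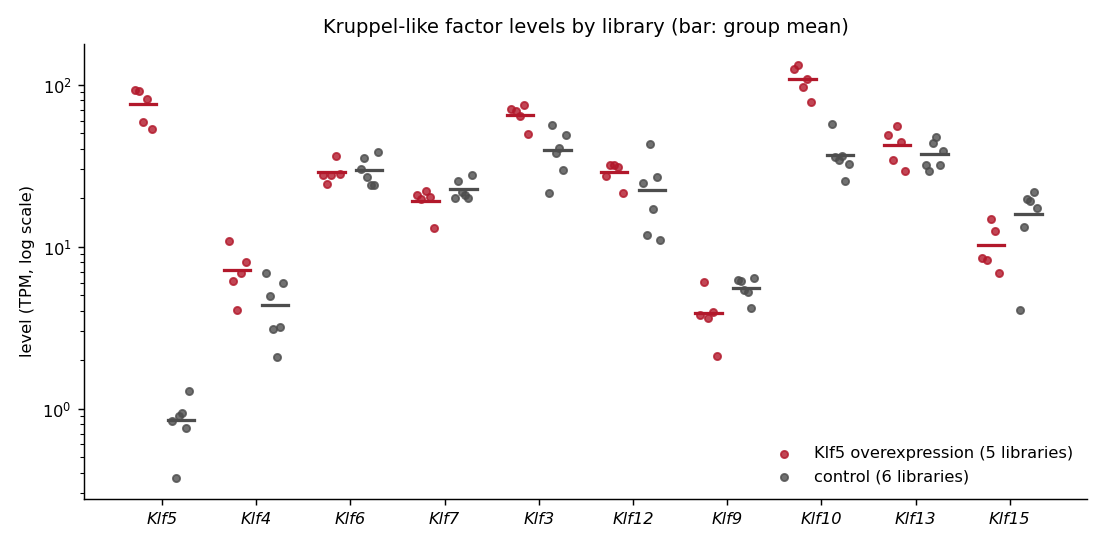
Levels of the 10 Kruppel-like factors in each library, in TPM on a log axis, with Klf5 overexpression (red, 5 libraries) left of control (grey, 6 libraries) and a bar at each group mean. Klf5 and Klf10 are the members whose groups do not overlap, with Klf5 at 53.6 to 93.0 TPM with overexpression against 0.371 to 1.29 TPM in controls, and Klf10 at 78.5 to 133 TPM with overexpression against 25.3 to 57.5 TPM in controls.

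Klf5 (ENSMUSG00000005148, chr14:99298691-99315036, plus strand, GRCm38) had 93.0, 91.4, 58.7, 82.1 and 53.6 TPM in overexpression replicates 1 to 5, against a lowest, median and highest control of 0.371, 0.867 and 1.29 TPM. Every overexpression library thus carried the label's transcript far above any control. The means were 75.8 ± 18.5 TPM with overexpression (SD, n = 5) and 0.849 ± 0.297 TPM in controls (SD, n = 6), an 89.2-fold ratio. No tested gene had a larger log2 fold change than its 5.36 ± 0.19 (SE; limma adjusted p = 9.08e-11). A level per gene does not separate introduced from endogenous Klf5 transcripts, and the form of the introduced transcript was not given in the sources used. Overexpression libraries differed among themselves by a factor of 1.74 in Klf5.

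Among the other activators, none passed the test. Klf4 (chr4:55527143-55532466, minus strand) had 10.8, 6.09, 4.05, 6.90 and 8.04 TPM in overexpression replicates 1 to 5, against a lowest, median and highest control of 2.07, 4.07 and 6.88 TPM. Of the overexpression libraries, 3 were above every control, and replicate 3 was below the control mean. The means were 7.18 ± 2.50 TPM with overexpression (SD, n = 5) and 4.37 ± 1.87 TPM in controls (SD, n = 6), and the log2 fold change was 0.63 (95% confidence interval 0.06 to 1.20, unadjusted p = 0.0332, limma adjusted p = 0.322). Klf5 exceeded Klf4 by 6.67 to 15.0 times in every overexpression library, whereas Klf5 stood at 0.0747 to 0.452 times Klf4 in every control. The pair thus stood in opposite order in the groups, while the Klf4 mean was not lower with overexpression.

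Klf6 (chr13:5861482-5870394, plus strand), an injury-induced gene also known as a tumour suppressor, had 27.7, 24.5, 27.6, 36.5 and 27.9 TPM with overexpression, against 24.1, 28.5 and 38.6 TPM as the lowest, median and highest control. The groups overlapped almost entirely, with means of 28.9 ± 4.49 TPM with overexpression (SD, n = 5) and 29.8 ± 5.98 TPM in controls (SD, n = 6). On the log2 scale the fold change of −0.04 had an interval from −0.36 to 0.28, a fold of 0.781 to 1.22, and its sign turned to 0.04 when libraries were rescaled to a common sum. Klf7 (chr1:64029447-64122282, minus strand), which promotes neurite outgrowth, had 21.0, 19.7, 22.1, 20.2 and 13.1 TPM with overexpression, against a lowest, median and highest control of 19.9, 21.4 and 27.9 TPM. Its group means were 19.2 ± 3.52 TPM with overexpression (SD, n = 5) and 22.7 ± 3.25 TPM in controls (SD, n = 6). Of the overexpression libraries, 2 were below every control, and the log2 fold change of −0.24 (interval −0.56 to 0.09) had a limma adjusted p of 0.628.

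The CtBP-binding repressors were Klf3, called higher, and Klf12, which was not called. Klf3 (chr5:64803388-64832901, plus strand), also named basic Kruppel-like factor, had 70.4, 68.9, 64.1, 74.6 and 49.4 TPM in overexpression replicates 1 to 5, against a lowest, median and highest control of 21.6, 39.5 and 56.4 TPM. Before any rescaling, all overexpression libraries but replicate 5, which had the lowest listed total, were above every control. The means were 65.5 ± 9.76 TPM with overexpression (SD, n = 5) and 39.4 ± 12.6 TPM in controls (SD, n = 6), and the log2 fold change was 0.77 ± 0.20 (SE; limma adjusted p = 0.0451). This call was close to the threshold and was lost in 8 of the 11 fits that left out 1 library, with adjusted p between 0.0170 and 0.123. Of the 13 other settings tried, 10 kept the call and 3 lost it, with limma adjusted p between 0.0108 and 0.179. Klf3 overlaps a pair of other tested genes, Gm20033 on the opposite strand and C230096K16Rik on the same strand. Their log2 fold changes were 0.31 (limma adjusted p = 0.652) and 0.24 (limma adjusted p = 0.795). The rule by which reads of overlapping genes were divided was not given in the sources used.

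Klf12 (chr14:99870632-100284679, minus strand), known as a repressor of the Ap-2alpha gene, had 27.2, 31.8, 32.1, 31.2 and 21.4 TPM with overexpression, against 11.0, 20.9 and 43.3 TPM as the lowest, median and highest control. The overexpression libraries all lay inside the control range. The coefficient of variation was 15.8% among overexpression libraries and 53.9% among controls, and the log2 fold change of 0.48 had an interval from −0.11 to 1.07 and a limma adjusted p of 0.558. Klf12 shares chromosome 14 with Klf5, on the opposite strand.

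Of the Sin3A-binding repressors, Klf10 was higher, Klf9 had mostly lower values that did not pass the test, and Klf13 was not called. Klf10 (chr15:38291463-38300706, minus strand) is the TGF-beta inducible early gene, which TGF-beta rapidly switches on in human bone cells. It had 126, 133, 97.1, 109 and 78.5 TPM in overexpression replicates 1 to 5, against a lowest, median and highest control of 25.3, 35.2 and 57.5 TPM. Every overexpression library was above every control, and the highest control, replicate 1, stood apart from the next at 36.2 TPM. The means were 109 ± 22.0 TPM with overexpression (SD, n = 5) and 37.0 ± 10.8 TPM in controls (SD, n = 6), a 2.94-fold ratio. The log2 fold change was 1.55 ± 0.18 (SE; interval 1.16 to 1.93; limma adjusted p = 7.41e-05). The call held in all 11 fits without 1 library and in all 13 other settings tried. Klf10 was thereby the most abundant of the 10 members in overexpression neurospheres, above Klf5 in each of the 5 libraries.

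Klf9 (chr19:23141226-23168134, plus strand), which is induced by thyroid hormone and glucocorticoids in neural cells, had 3.77, 6.06, 3.63, 3.95 and 2.12 TPM with overexpression, against 4.18, 5.77 and 6.37 TPM as the lowest, median and highest control. Of the overexpression libraries, 4 were below every control, and replicate 2 was within the control range. The means were 3.90 ± 1.41 TPM with overexpression (SD, n = 5) and 5.59 ± 0.824 TPM in controls (SD, n = 6), and the log2 fold change was −0.46 (interval −0.91 to −0.02, unadjusted p = 0.0415, limma adjusted p = 0.363). Klf13 (chr7:63886351-63938915, minus strand), a regulator of the chemokine gene Ccl5 in T cells, had 49.3, 34.2, 55.8, 44.1 and 29.3 TPM with overexpression, against a lowest, median and highest control of 29.1, 35.6 and 47.6 TPM. These ranges overlapped widely, with means of 42.5 ± 10.8 TPM with overexpression (SD, n = 5) and 37.2 ± 7.43 TPM in controls (SD, n = 6), and the log2 fold change of 0.17 (interval −0.20 to 0.55) had a limma adjusted p of 0.829.

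Klf15 (chr6:90462576-90475238, plus strand), a glucocorticoid-responsive regulator of amino acid and glucose metabolism, had 8.54, 8.24, 14.8, 12.4 and 6.85 TPM with overexpression, against 4.06, 18.2 and 21.6 TPM as the lowest, median and highest control. The lowest control, replicate 1, was below every overexpression library, whereas the other 5 controls lay between 13.1 and 21.6 TPM. The means were 10.2 ± 3.31 TPM with overexpression (SD, n = 5) and 15.8 ± 6.45 TPM in controls (SD, n = 6), and the log2 fold change of −0.49 (interval −1.19 to 0.20) had a limma adjusted p of 0.650. Without control replicate 1 it was −0.81 with a limma adjusted p of 0.0384, so this 1 library decided the call. That library was also the highest control for Klf10 and Klf4 and the lowest for Klf3 and Klf7.

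**Figure D2:**
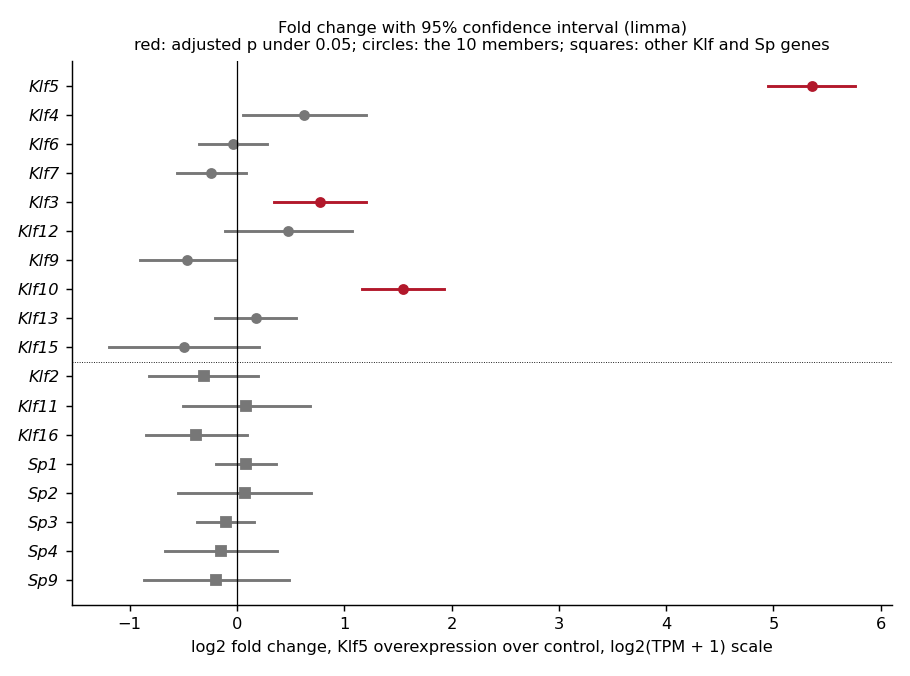
Log2 fold change of Klf5 overexpression over control, on the log2(TPM + 1) scale, with the 95% confidence interval from limma, for the 10 members (circles) and the other Klf and Sp genes tested (squares). Red marks an adjusted p under 0.05, which was reached by Klf5 (5.36), Klf10 (1.55) and Klf3 (0.77).

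The promoters of the other members with an unadjusted p under 0.05, as far as the RefSeq table (build GRCm38.p6) held them, are shown because Kruppel-like factors bind the letters they contain. Each window runs from 250 bases before to 50 bases after the RefSeq start, which can differ from the gene start given above, and is written 5′ to 3′ on the strand of the gene. Capitals mark CACCC (reverse complement GGGTG) and the GC box GGGCGG (reverse complement CCGCCC), searched on both strands.
Klf4, chr4:55532426-55532725, minus strand: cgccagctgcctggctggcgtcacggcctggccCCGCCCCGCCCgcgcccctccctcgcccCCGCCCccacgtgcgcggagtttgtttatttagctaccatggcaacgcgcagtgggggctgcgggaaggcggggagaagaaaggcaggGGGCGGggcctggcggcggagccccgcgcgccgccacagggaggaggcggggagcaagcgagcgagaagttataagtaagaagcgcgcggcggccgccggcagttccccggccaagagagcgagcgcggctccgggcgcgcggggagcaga
Klf3, chr5:64803271-64803570, plus strand: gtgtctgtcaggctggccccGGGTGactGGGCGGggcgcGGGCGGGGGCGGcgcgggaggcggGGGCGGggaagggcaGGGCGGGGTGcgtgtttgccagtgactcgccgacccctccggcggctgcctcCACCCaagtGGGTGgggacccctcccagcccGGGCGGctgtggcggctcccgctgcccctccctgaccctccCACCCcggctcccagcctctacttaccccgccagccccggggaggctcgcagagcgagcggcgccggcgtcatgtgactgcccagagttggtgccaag
Klf9, chr19:23140976-23141275, plus strand: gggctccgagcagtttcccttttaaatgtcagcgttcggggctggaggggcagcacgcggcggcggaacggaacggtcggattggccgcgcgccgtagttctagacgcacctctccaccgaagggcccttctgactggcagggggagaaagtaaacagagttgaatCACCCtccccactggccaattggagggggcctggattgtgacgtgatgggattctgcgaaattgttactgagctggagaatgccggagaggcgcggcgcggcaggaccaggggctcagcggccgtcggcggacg
The Klf3 window held 5 CACCC matches and 6 GC boxes, of which 1 of each overlapped. As many CACCC matches occur in 1.02% and as many GC boxes in 1.35% of the 32851 promoters of the table. The Klf4 window held no CACCC match and 4 GC boxes, a number that 5.49% of promoters reach. The Klf9 window held 1 CACCC match and no GC box. At least 1 match was present in 57.5% of all promoters for CACCC and in 35.7% for the GC box. The GC content was 76.7% in the Klf3 window, 74.3% in the Klf4 window and 63.3% in the Klf9 window, beside a median of 52.7% over all promoters. Of the 10 members, 8 matched the table, which held no window for Klf5 and Klf10, so these called members have no counts here. Among the matched members not printed, none of whose levels passed the test, Klf7 held 3 CACCC matches. Klf12, Klf13 and Klf15 held 1 each while Klf6 held none. Of the same windows, Klf13 held 3 GC boxes, a number that 10.7% of promoters reach. Klf6, Klf7 and Klf15 held 1 GC box each, and Klf12 held none. The Klf12 window (chr14:100149747-100150046, GC content 45.7%) lies well inside the gene, whose start given above is 100284679 on the minus strand. Its counts therefore do not describe the sequence at that start. The matches are letters in a window and no measure of binding.

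The order of levels within the family differed between the groups, mainly at its top and bottom. With overexpression the means ran from Klf10 (109 TPM) through Klf5 (75.8), Klf3 (65.5), Klf13 (42.5), Klf6 (28.9), Klf12 (28.7), Klf7 (19.2), Klf15 (10.2) and Klf4 (7.18) to Klf9 (3.90 TPM). The ranges of every pair of neighbours in that order overlapped. In controls the order was Klf3 (39.4 TPM), Klf13 (37.2), Klf10 (37.0), Klf6 (29.8), Klf7 (22.7), Klf12 (22.5), Klf15 (15.8), Klf9 (5.59), Klf4 (4.37) and Klf5 (0.849 TPM). Here Klf4 and Klf5 were the only neighbours whose ranges did not overlap. Klf5 was thus the least abundant of the 10 in control neurospheres and ranked second with overexpression. Klf4 stood above Klf9 in all 5 overexpression libraries, whereas Klf9 stood above Klf4 in 5 of 6 controls.

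Compensation between members was looked for only as lower levels of the others where Klf5 is high. Other forms of it were not tested. No single member was called lower, although Klf9, Klf15 and Klf7 had negative log2 fold changes. The summed level of the other 9 members, in which abundant members weigh most, was 344, 333, 321, 339 and 237 TPM in overexpression replicates 1 to 5, against 187 to 237 TPM in controls. Overexpression replicate 5, at 236.6 TPM, was just below the highest control, at 236.7 TPM, and the other 4 were above it. These sums were not rescaled, and overexpression replicate 5 had a listed total of 730832 TPM against 829424 TPM in that control, replicate 3. The means were 315 ± 44.5 TPM with overexpression (SD, n = 5) and 214 ± 17.9 TPM in controls (SD, n = 6). Klf10 and Klf3 made up nearly all of the difference. Without Klf10 the sums were 206 ± 29.1 TPM with overexpression (SD, n = 5) and 177 ± 21.3 TPM in controls (SD, n = 6), and without Klf10 and Klf3 they were 141 ± 21.0 TPM with overexpression (SD, n = 5) and 138 ± 15.2 TPM in controls (SD, n = 6). Being sums over chosen genes, they were not tested, and they do not speak to single low members such as Klf9. With Klf5 included, the 10 members summed to 391 ± 60.0 TPM with overexpression (SD, n = 5) and 215 ± 18.0 TPM in controls (SD, n = 6). Klf5 took 15.5 to 21.6% of that sum in overexpression libraries and 0.170 to 0.561% in controls, and Klf10 took 27.7% ± 2.39 with overexpression (SD, n = 5) and 17.3% ± 5.53 in controls (SD, n = 6).

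**Figure D3:**
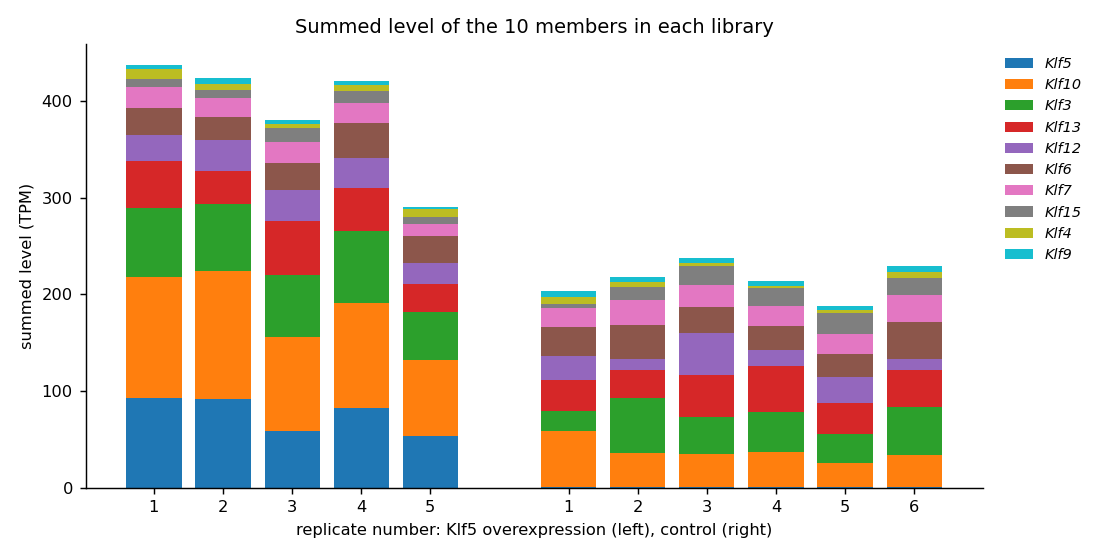
Summed TPM of the 10 members in each library, stacked by gene, with overexpression replicates 1 to 5 left of control replicates 1 to 6. The overexpression bars reach 290.2 to 437 TPM and the control bars 188 to 238 TPM, and the added height lies in Klf5, Klf10 and Klf3.

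The relation of each member to the amount of Klf5 was read within each group, because the groups form separate clusters in Klf5. In the order of rising Klf5 (53.6, 58.7, 82.1, 91.4 and 93.0 TPM, which is replicates 5, 3, 4, 2 and 1), Klf10 had 78.5, 97.1, 109, 133 and 126 TPM, going up in 3 of 4 steps. The ratio of Klf10 to Klf5 was 1.33 to 1.65 in these libraries. Klf3 and Klf9 also went up in 3 of 4 steps, and each of the other 6 members in 2 of 4. Klf9 was thus lower on average with overexpression but lowest, at 2.12 TPM, in the library with the least Klf5 among the 5. Klf5, Klf10, Klf3 and Klf9 all had their lowest overexpression value in replicate 5, whose listed total was also lowest, and the part of that library in these orders was not tested. After rescaling to a common sum, replicate 3 (72.7 TPM) was just below replicate 5 (73.4 TPM) in Klf5, and replicate 1 (113 TPM) below replicate 2 (118 TPM). In that order Klf10 still went up in 3 of 4 steps, Klf3 and Klf9 in 2 and Klf7 in 1. No correlation was computed over the 5 libraries.

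**Figure D4:**
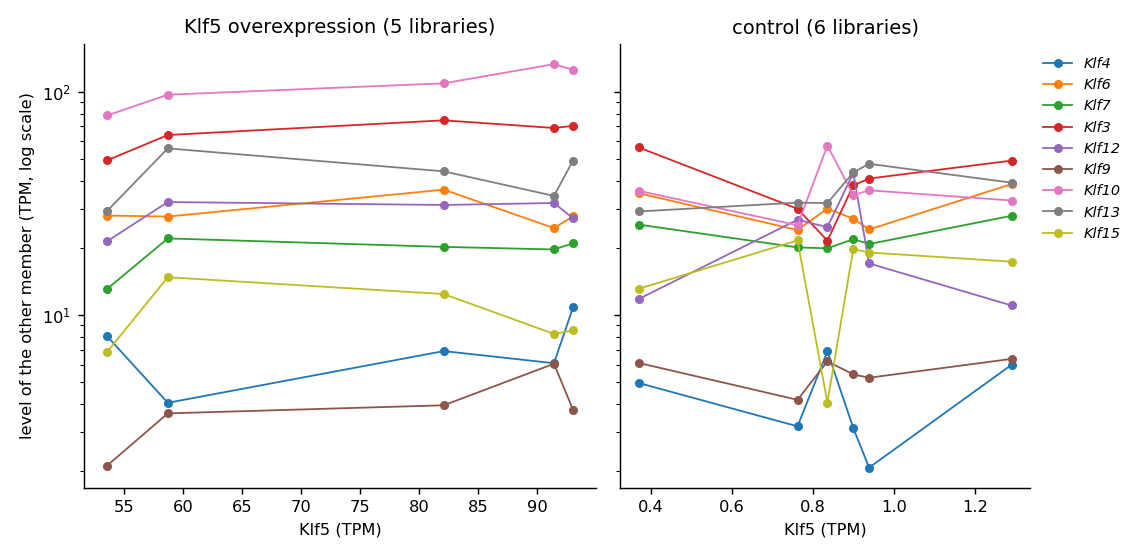
Level of each of the other 9 members (TPM, log axis) against the level of Klf5 (TPM) in the same library, with the 5 overexpression libraries left and the 6 controls right; lines join libraries in order of Klf5. With overexpression Klf10 goes up in 3 of 4 steps, and in controls, where Klf5 spans 0.371 to 1.29 TPM, none of the 9 relations passed the test.

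Within the 6 controls, none of 9 relations with Klf5 passed the test. Over all 6 the largest was Klf13, with Pearson's r of 0.65 (exact permutation p = 0.151, adjusted p = 0.994) and Spearman's rho of 0.77 (exact permutation p = 0.103, adjusted p = 0.925), all two-sided. Over all 6 the other 8 members had r between −0.15 and 0.15, each with an adjusted p of 0.994. Single controls decided several of these values. Without replicate 2, r was 0.96 for Klf7, 0.83 for Klf6 and 0.76 for Klf3, and without replicate 6 it was −0.84, −0.79 and −0.58. Without both, the 2 controls farthest from the median of Klf5, r for Klf13 was 0.91 over 4 libraries (exact permutation p = 0.167, unadjusted). In those 4 it was 0.65 for Klf7, 0.62 for Klf3, 0.51 for Klf9 and −0.42 for Klf4. Klf4, at an r of −0.01 (rho −0.14), had no detectable relation to Klf5 over this narrow control range. No control held more than 1.29 TPM of Klf5.

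Patterns like those of 3 members were sought by the mean absolute difference between z-scores of log2(TPM + 1) over the 11 libraries, which is 0 for an identical pattern and had a median near 1.1 over all tested genes. Nearest to Klf5 were Serpinb1a (0.0775), S1pr2 (0.0985), Rbpms (0.104), Lbhd2 (0.114) and Hspa12b (0.139). Serpinb1a, a serine protease inhibitor, averaged 12.4 ± 1.77 TPM with overexpression (SD, n = 5) and 0.0747 ± 0.0581 TPM in controls (SD, n = 6). S1pr2, a sphingosine-1-phosphate receptor, averaged 18.4 ± 2.71 TPM with overexpression (SD, n = 5) and 5.17 ± 0.552 TPM in controls (SD, n = 6). Any gene with a large, even difference between the groups lies near Klf5 by this measure. Serpinb1a and Lbhd2, with control means of 0.0747 and 0 TPM, passed the limit for testing only through the overexpression libraries. Nearest to Klf10 were Rbm24 (0.135), Nrn1 (0.137), Znrf2 (0.160), Emp1 (0.207) and Sema3b (0.208). Znrf2, a ubiquitin ligase, averaged 21.4 ± 5.71 TPM with overexpression (SD, n = 5) and 7.55 ± 2.31 TPM in controls (SD, n = 6).

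Klf4 had a different set of nearest genes, all at a larger distance. They were Cdkn1a (0.295), Susd6 (0.309), Tnfrsf10b (0.310), Gdf15 (0.313) and Stk40 (0.348), among which Cdkn1a, Tnfrsf10b and Gdf15 are known p53 targets. Cdkn1a encodes the cell cycle inhibitor p21. It had 379, 299, 203, 269 and 256 TPM in overexpression replicates 1 to 5, against 74.5 to 199 TPM in controls. No overexpression library overlapped the controls. Since these genes were picked for their pattern over all 11 libraries, their likeness to Klf4, within the groups and between them, restates that choice. The share of p53 targets among all tested genes was not counted. Cdkn1a was called higher, and the log2 fold change was 1.04 ± 0.23 (SE; limma adjusted p = 0.0166), and this p was 0.0517 without overexpression replicate 1 and 0.111 without a filter on low values. Gdf15, a stress-induced secreted factor, averaged 18.0 ± 6.70 TPM with overexpression (SD, n = 5) and 7.07 ± 5.16 TPM in controls (SD, n = 6), at a log2 fold change of 1.41 (limma adjusted p = 0.0451), a call lost in 9 of 11 fits without 1 library, where the adjusted p reached 0.135.

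Within the family and the related Sp factors, Klf5 and Klf10 were each other's nearest pattern, at 0.243, although 51 tested genes lay nearer to Klf5 and 17 nearer to Klf10. The nearest for Klf3 was Klf5 (0.530), and Klf9 and Klf7 were each other's nearest (0.556). Klf4 and Klf12 were nearest to Klf10 (0.703 and 0.763), Klf6 to Klf7 (0.794), and Klf13 and Klf15 to Klf11 (0.744 and 0.539).

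The other family genes did not differ detectably. Klf2, Klf11 and Klf16 were tested, as were Sp1, Sp2, Sp3, Sp4 and Sp9, which share the zinc fingers and bind GC boxes; none of these 3 Klf and 5 Sp genes was called by limma or had an unadjusted p under 0.05. Klf16 averaged 14.5 ± 5.31 TPM with overexpression (SD, n = 5) and 18.9 ± 4.83 TPM in controls (SD, n = 6), at a log2 fold change of −0.38 (interval −0.85 to 0.09). Klf2 averaged 1.13 ± 0.398 TPM with overexpression (SD, n = 5) and 1.66 ± 0.597 TPM in controls (SD, n = 6), at a log2 fold change of −0.31 (interval −0.82 to 0.20). Klf11, a close relative of Klf10 that also recruits Sin3A, averaged 4.18 ± 0.688 TPM with overexpression (SD, n = 5) and 4.22 ± 1.96 TPM in controls (SD, n = 6). The interval of its log2 fold change was −0.50 to 0.68, and its difference from Klf10 was not tested. The general activator Sp1 averaged 27.3 ± 3.95 TPM with overexpression (SD, n = 5) and 25.6 ± 3.15 TPM in controls (SD, n = 6), at a log2 fold change of 0.08 (interval −0.20 to 0.36), and Sp3 42.9 ± 6.32 TPM with overexpression (SD, n = 5) and 46.0 ± 4.35 TPM in controls (SD, n = 6), with −0.11 (interval −0.37 to 0.16). Sp2 and Sp4 averaged 5.56 and 5.44 TPM with overexpression and 5.58 and 6.35 TPM in controls, and Sp9, a factor of ventral forebrain interneurons, 1.39 TPM with overexpression and 1.72 TPM in controls. Klf1, Klf8, Klf14 and Klf17 and Sp5 to Sp8 were under 1 TPM in every library.

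Lists this short hold few calls at the overall share of 3.72%, so their counts say little about the machinery the members work through. Among 11 cofactors (CtBP, Sin3, histone deacetylases and acetyltransferases and Fhl3), limma called 0 genes, 2 had an unadjusted p under 0.05, against 12.6% of tested genes, and the median log2 fold change was 0.02. Those were Ctbp2, 1 of the CtBP corepressors that Klf3 and Klf12 bind, and Sin3a. Ctbp2 averaged 30.2 ± 12.9 TPM with overexpression (SD, n = 5) and 50.7 ± 15.4 TPM in controls (SD, n = 6, limma adjusted p = 0.194). The more abundant Ctbp1 averaged 170.9 ± 38.2 TPM with overexpression (SD, n = 5) and 170.8 ± 31.2 TPM in controls (SD, n = 6, limma adjusted p = 0.998). Sin3a averaged 30.5 ± 5.93 TPM with overexpression (SD, n = 5) and 22.0 ± 5.86 TPM in controls (SD, n = 6, limma adjusted p = 0.291). Ctbp2 was at 52.4 TPM in overexpression replicate 5 and at 21.9 TPM in control replicate 1, the libraries that stood apart in several members. Among 9 genes of protein turnover, including Wwp1 and Fbxw7, ligases that mark Klf5 for degradation, limma called 0 genes, and 0 had an unadjusted p under 0.05. The smallest p there belonged to Wwp1 (13.7 ± 1.39 TPM with overexpression against 15.9 ± 2.04 TPM in controls, limma adjusted p = 0.672) and Itch (28.0 ± 5.37 TPM with overexpression against 24.7 ± 3.97 TPM in controls, limma adjusted p = 0.794), as mean ± SD of 5 and 6 libraries.

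Genes reported as Klf5 targets in other cell types, such as Ccnd1, Pdgfa, Egr1 and Birc5, gave 1 call, too few to set against the share of all tested genes. Of 15 such genes 12 were tested, 1 was called higher, which was Cdkn1a, and none lower; 3 had an unadjusted p under 0.05 and the median log2 fold change was 0.08, beside 3.72% called, 12.6% with such a p and a median of −0.04 over all tested genes. Among the TGF-beta genes that lie upstream of Klf10 or beside it, 9 of 11 were tested and 1 was called, Tgfb1, the ligand itself. It had 3.98, 4.70, 2.66, 3.59 and 3.12 TPM in overexpression replicates 1 to 5, against 0.856 to 1.62 TPM in controls, so the groups did not overlap. The means were 3.61 ± 0.784 TPM with overexpression (SD, n = 5) and 1.20 ± 0.337 TPM in controls (SD, n = 6), and the log2 fold change was 1.06 ± 0.21 (SE; limma adjusted p = 0.00642). Tgfb1 reached 1 TPM in 5 libraries only with the overexpression libraries counted, the group in which it was high. The median log2 fold change of the TGF-beta genes was 0.14, and 2 had an unadjusted p under 0.05.

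Among 14 glucocorticoid and clock genes, the setting in which Klf9 and Klf15 are best known, limma called 0 genes and 5 had an unadjusted p under 0.05, against 12.6% of tested genes. The median log2 fold change was −0.19, beside −0.04 over all tested genes. Hlf, a clock output factor, averaged 3.92 ± 1.73 TPM with overexpression (SD, n = 5) and 6.56 ± 1.62 TPM in controls (SD, n = 6; limma adjusted p = 0.201), while Clock averaged 7.70 ± 2.35 TPM with overexpression (SD, n = 5) and 5.05 ± 0.639 TPM in controls (SD, n = 6; limma adjusted p = 0.236). Of the 7 pluripotency genes that work with Klf4, only Myc and Sox2 were tested. Myc averaged 93.0 ± 12.4 TPM with overexpression (SD, n = 5) and 83.0 ± 11.1 TPM in controls (SD, n = 6), Sox2 averaged 360 ± 64.3 TPM with overexpression (SD, n = 5) and 377 ± 47.5 TPM in controls (SD, n = 6), and neither was called (limma adjusted p = 0.718 and 0.922).

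Some markers of neural cells moved with the groups beside these members. Of 8 neural progenitor markers, Vim was called higher, at 1572 ± 307 TPM with overexpression (SD, n = 5) and 1075 ± 72.5 TPM in controls (SD, n = 6), and Msi1 lower, at 17.4 ± 5.39 TPM with overexpression (SD, n = 5) and 27.0 ± 2.88 TPM in controls (SD, n = 6). Their log2 fold changes were 0.53 and −0.64 (limma adjusted p = 0.0365 and 0.0433), although both calls were lost in most fits that left out 1 library. Of these 8 markers 2 had a log2 fold change above 0, against 42.4% of tested genes, and 4 had an unadjusted p under 0.05, against 12.6%. Their median was −0.25, beside −0.04 over all tested genes. Of 4 tested astrocyte markers, S100b was called higher, at 8.42 ± 5.13 TPM with overexpression (SD, n = 5) and 0.956 ± 0.599 TPM in controls (SD, n = 6), and Aldh1l1 lower, at 15.8 ± 9.27 TPM with overexpression (SD, n = 5) and 62.6 ± 16.7 TPM in controls (SD, n = 6), with log2 fold changes of 2.19 and −2.04 (limma adjusted p = 0.000310 and 0.000692). All 4 had an unadjusted p under 0.05, 2 of them lower, and their median was −0.28. S100b, at 0.271 to 2.04 TPM in controls, reached 1 TPM in 5 libraries only with the overexpression libraries counted. It thus entered the test through the group in which it was high, and its call is to be read with that limit. Aldh1l1 (chr6:90486427-90600203, plus strand) lies shortly beyond the end of Klf15 on the same strand. The summed level of the astrocyte markers was 17.0 to 45.4 TPM with overexpression and 36.2 to 100.2 TPM in controls. The oligodendrocyte markers summed to 1601 to 1953 TPM with overexpression and 1610 to 2794 TPM in controls, and the neuronal markers to 195 to 306 TPM with overexpression and 224 to 334 TPM in controls. Limma called 0 of the 6 neuronal and 0 of the 5 oligodendrocyte markers tested. An unadjusted p under 0.05 was reached by 2 neuronal markers and 1 oligodendrocyte marker. Over all tested genes 3.72% were called and 12.6% had such a p, and lists this short hold few of either. The mural and mesenchymal markers summed to 1.24 to 3.04 TPM with overexpression and 1.04 to 5.49 TPM in controls. Of the genes outside the family given here, Ctbp2 overlaps Fgfr2, S100b overlaps Dip2a on the opposite strand, Sox2 lies within Sox2ot, Wwp1 overlaps Gm12353 on the opposite strand, Clock overlaps Ube2n-ps1 on the same strand, and Sp3 and Sp9 overlap Sp3os and Cir1 on the opposite strand, so reads of these pairs may have been divided between them. The part of cell composition in the levels of Klf10, Klf3, Klf9 and Klf15 was not tested.

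**Figure D5:**
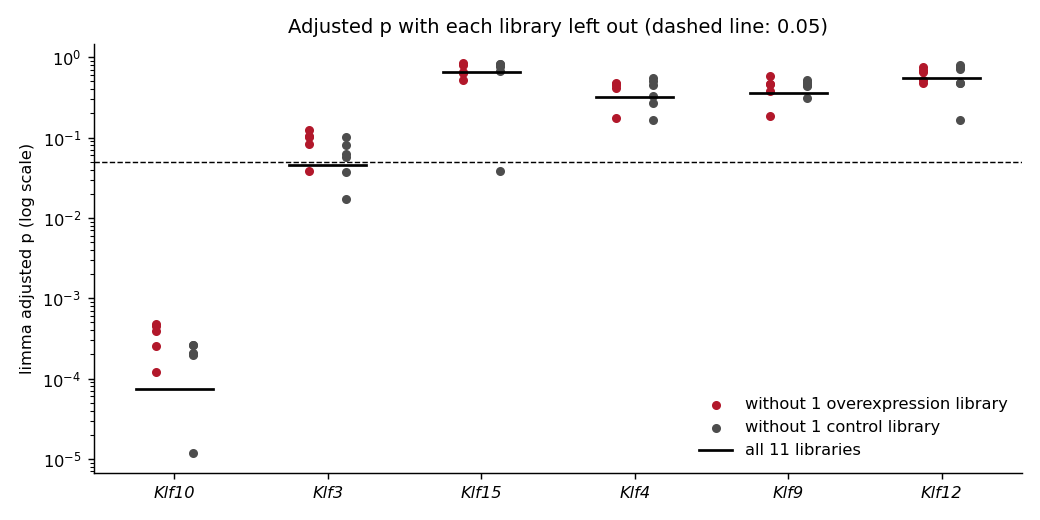
Limma adjusted p (log axis) for 6 members with each library left out in turn, red points without 1 overexpression library and grey points without 1 control library; the black bar is the value with all 11 libraries and the dashed line is 0.05. Klf10 stays below 0.05 in all 11 fits, Klf3 lies above it in 8 of 11, and Klf15 lies below it only without control replicate 1, at 0.0384.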

How the data were processed

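Per the labels' protocols, total RNA was sequenced from 11 neurosphere cultures with 2 library kits; which library had which kit was not given in the sources used. The authors deposited 1 table of TPM values, with 1 column per library. GRCm38.p5, DESeq2, HTSeq, StringTie and HISAT2 stand in the submitters' processing notes, without versions or roles. Of 53453 rows, 53255 matched a gene symbol and 25352 were 0 throughout; coordinates are from GENCODE M21 (GRCm38). Genes that reached 1 TPM in 5 or more libraries were tested as log2(TPM + 1) with limma 3.58.1 (R 4.3.3) with a variance trend, two-sided, with Benjamini-Hochberg adjustment over all tested genes at 0.05; the fit was tested on simulated data. Correlations used exact permutation tests (Python 3.11.15, scipy 1.17.1). Members and lists were chosen with earlier results of these data known. Named genes are the members, other tested Klf and Sp genes, called genes of each list or else its 2 with the smallest p, and the 5 genes nearest in pattern to Klf5, Klf10 and Klf4. Lists of other cell types are given by their sums, and Ctbp1 is given beside Ctbp2. No count test was run, since TPM keeps no depth. Alternatives were other pseudocounts, filters, scalings and variance settings, a replicate block, and each library left out.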

Additional observations from a re-analysis of the deposited data

Results flagged for a closer look

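In 4 of 28 groups of values looked at, 1 library stood farther from the others than Dixon's 95% critical value allows, where chance gives about 1 in 20. Klf10 was at 57.5 TPM in control replicate 1, with the next control at 36.2 TPM. Klf6 was at 36.5 TPM in overexpression replicate 4, with the next at 27.9 TPM. Klf7 was at 13.1 TPM in overexpression replicate 5, with the next at 19.7 TPM. The summed level of the 9 members other than Klf5 was 237 TPM in overexpression replicate 5, with the next at 321 TPM. All these levels are before rescaling to a common sum, and overexpression replicate 5 had the lowest listed total.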

How the results depend on the processing

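The calls of Klf5 and Klf10 held in all 24 alternatives. Klf3 kept its direction but lost its call in 8 of 11 fits without 1 library (log2 fold change 0.62 to 0.89), with a pseudocount of 0.1 (0.79, adjusted p = 0.0528), without a filter (0.77, adjusted p = 0.179) and without a variance trend (0.77, adjusted p = 0.0878). The Klf3 call was kept in 10 of the 13 settings other than leaving out 1 library, with a limma adjusted p as low as 0.0108. Klf15 ranged from −0.81 to −0.38 with 1 library left out and was called only without control replicate 1. Klf6, never called, turned from −0.04 to 0.043 after rescaling to a common sum, to 0.040 without mitochondrial and haemoglobin genes, to 0.028 with array weights, to 0.013 without rows resembling ribosomal RNA, and to 0.0016 and 0.0020 with trimmed-mean scaling and quantile normalization; with 1 library left out it ran from −0.12 to 0.040. The cause was not tested.

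The number of lower genes was 194, against 95 without a filter, 300 with trimmed-mean scaling, 311 with quantile normalization and 117 to 212 with 1 library left out; that of higher genes was 206 to 313 and of all called genes 353 to 492 with 1 library left out. Those with fewest were without overexpression replicate 2 (117 lower) and replicate 4 (206 higher), and the lower count was 125 without control replicate 3 and 129 without overexpression replicate 5. The share of calls that were higher was 61.5%, against 72.8% without a filter and 51.0% without overexpression replicate 1. After rescaling, the sum of the 9 other members averaged 399.9 TPM with overexpression and 258 TPM in controls. Among the relations with Klf5 in controls, r for Klf4 was 0.083 in TPM and 0.014 after rescaling, and without the 2 farthest controls it was 0.29 for Klf10, 0.62 for Klf3 and −0.15 for Klf12. With 1 control left out r spanned −0.43 to 0.33 for Klf4, −0.14 to 0.10 for Klf10, −0.58 to 0.76 for Klf3, −0.31 to 0.66 for Klf9, −0.74 to 0.68 for Klf12, −0.79 to 0.83 for Klf6 and −0.84 to 0.96 for Klf7.

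Replicate numbers are shared by 5 pairs but were not shown to pair embryos, with correlations of deviations of 0.30, 0.06, −0.01, −0.04 and 0.02, and 1 of 5 overexpression libraries correlating best with its own number. With the replicate block 426 genes were called, against 406 on the same 10 libraries without it, where 129 were lower; Klf6 was 0.040 in both, and Klf5, Klf10 and Klf3 were called with the block.

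Msi1 and Vim were called in 8 and 11 of 24 alternatives, Gdf15 in 7, Cdkn1a in 22 and Tgfb1 in all 23 that kept it, these being alternatives chosen after seeing the data. Depth is unknown, so no counting error is attached to low levels such as Klf5 in controls.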
